A study of Mus musculus with 4 samples.

Results

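Milk protein genes were followed in mouse mammary basal cells: the caseins Csn1s1, Csn1s2a, Csn2 and Csn3, the whey protein genes Wap, Lalba and Ltf, the mucin-like gene Glycam1, and the milk fat globule genes Btn1a1 and Mfge8. These 10 genes were selected from their known products, with earlier results of these data in view, so their values are given as a description. Of the 10, 9 were among the 17630 genes with values, and the expression of Csn1s2a was not analysed here. Caseins are the main proteins of milk and are made by luminal alveolar cells in late pregnancy and lactation, under prolactin, glucocorticoid and the transcription factor STAT5. Basal cells form the outer layer of the duct, next to the stroma, and are mostly contractile myoepithelial cells that do not secrete milk.

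RNA-seq was analysed for 4 libraries of wild-type mammary basal cells, with 1 library per condition. Basal cells were sorted from control mice (sorted control) and from mice given 6-OHDA (6-hydroxydopamine), a toxin that destroys sympathetic nerve endings; the sort kept CD24+ CD29-high cells after removal of cells bearing blood and endothelial markers. Basal cell colonies grown in Matrigel were analysed without agonist (control colonies) and with salbutamol and phenylephrine, agonists of β2 and α1 adrenergic receptors (SP colonies). The labels of the control colony library list no treatment and do not name the culture; it was placed by its title, which has the number 0 where that of the SP library has 200, without a unit. The study used C57BL/6 and Actin-DsRed mice and gave 6-OHDA to weanling, pregnant and adult mice. Which strain and age apply to these libraries, and how many mice were pooled, is not stated in the sources used here.

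Values are FPKM, fragments scaled by transcript length and by the fragments of the library, so they are levels per length. They summed to 508071 in sorted control cells, 517504 in 6-OHDA cells, 577631 in control colonies and 588202 in SP colonies. From the steps between low values, 1 FPKM on 1 kilobase was estimated to stand for between 16.2 and 17.9 fragments at an assumed fragment length of 250 bases. With 1 library per condition no difference has a replicate check and nothing was tested. Fold changes are differences of log2(FPKM + 1), which understate the change of low genes, and a gene was counted as higher or lower when its difference was over 0.3 in size and its mean FPKM over both libraries was at least 1. The culture comparison uses the control libraries of the other comparisons, and in it culture, batch and source of the cells cannot be told apart.

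Markers of cell type were read first. The basal keratin Krt14 was at 3595, 2633, 3298 and 6920 FPKM in sorted control cells, 6-OHDA cells, control colonies and SP colonies. All 9 basal markers were above 0 in all 4 libraries, but so were all 8 luminal, 6 luminal progenitor, 7 hormone-sensing luminal and 6 fibroblast markers. Being above 0 therefore does not mark a library as basal. The myosin heavy chain Myh11 of myoepithelial cells was at 467, 449, 11.2 and 21.4 FPKM. The luminal keratin Krt8 was at 560, 545, 698 and 683 FPKM, so a luminal marker was present in each library too. The 6-OHDA library stood apart by its salivary gland genes: the 11 listed with values summed to 15599 FPKM there, led by Bpifa2 at 7277, and to 1.87, 1.36 and 1.64 FPKM in the sorted control, control colony and SP colony libraries. The part of this material in the milk protein values was not tested.

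The 9 genes summed to 5145 FPKM in sorted control cells, 2586 in 6-OHDA cells, 580 in control colonies and 424 in SP colonies, which was 1.01%, 0.5%, 0.1% and 0.0721% of each library. The gene with the largest share differed between sorted cells and colonies. Glycam1 made up 91.9% of the sum in sorted control cells and 84.0% in 6-OHDA cells, while Mfge8 made up 89.9% in control colonies and 66.6% in SP colonies. Without these 2 genes the sums were 61.0, 122, 58.6 and 142 FPKM. In order of level, Glycam1, Mfge8, Csn3 and Ltf led both sorted libraries; Mfge8, Csn1s1, Btn1a1 and Csn3 led control colonies, and Mfge8, Csn1s1, Ltf and Csn3 led SP colonies. In SP colonies Ltf and Csn3, at 19.8 and 19.0 FPKM, were the closest neighbours in that order, and with no replicates it is unknown whether they differ.

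**Figure D1:**
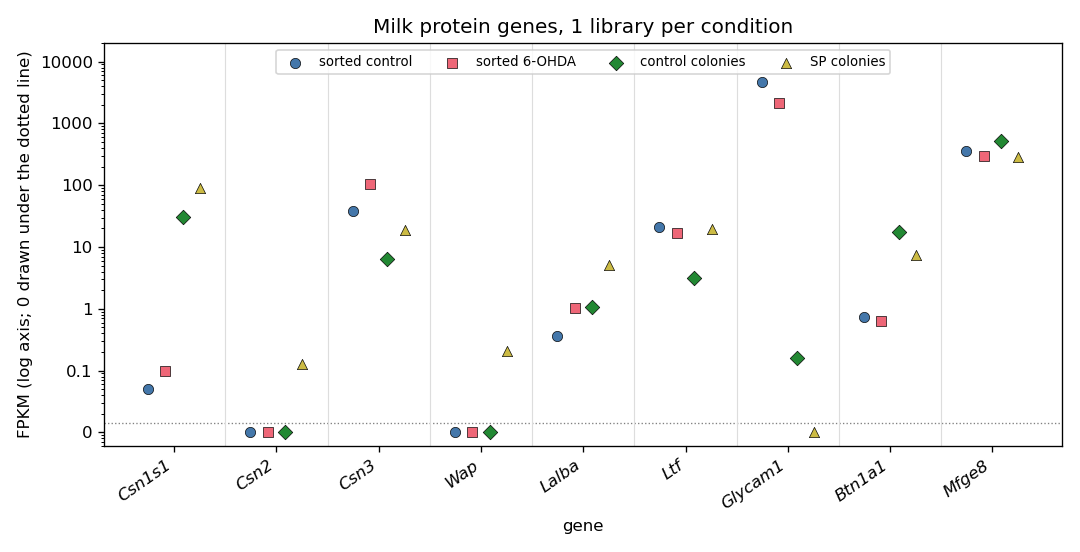
FPKM of the 9 milk protein genes on a log axis, with 1 point for each library and values of 0 drawn under the dotted line. Glycam1 is high in both sorted libraries and at or near 0 in both colony libraries, while Csn1s1 and Btn1a1 are above 1 FPKM in the colony libraries alone.

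Among the caseins, Csn1s1 (αS1-casein, a calcium-binding milk phosphoprotein) was at 0.05 FPKM in sorted control cells, 0.1 in 6-OHDA cells, 30.8 in control colonies and 89.8 in SP colonies. Both sorted values correspond to about 1 and 2 fragments, and the colony values to about 625 and 1867. Csn1s1 was thus a gene of the cultured libraries, 2.92 times as high with SP as without (log2 fold change 1.52), and 94 of 11849 genes compared had a larger rise. Csn3 (κ-casein, which stabilises the casein micelle) ran the other way between cells and colonies: 38.4 FPKM in sorted control cells, 104 in 6-OHDA cells, 6.41 in control colonies and 19.0 in SP colonies. It was higher with treatment in both settings, with log2 fold changes of 1.41 for 6-OHDA and 1.43 for SP, and lower in control colonies than in sorted control cells (-2.41). Csn2 (β-casein), the other major casein, was listed at 0 in 3 libraries and at 0.13 FPKM in SP colonies, about 3 fragments.

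The caseins lie together on chromosome 5. Csn1s1 is at chr5:87666208-87682578 in GRCm38, Csn2 at chr5:87692619-87699429 and Csn3 at chr5:87925579-87932550, and 12 annotated genes start in the stretch from Csn1s1 to Csn3, of which 7 had values. Csn1s2b, another casein gene, was at 0, 0.13, 0.12 and 0.12 FPKM, and Prr27 and Odam stayed under 1 FPKM in all 4 libraries. BC037156, which ends 11408 bases before Csn3, was listed at 0 in 3 libraries and at 495 FPKM in 6-OHDA cells. Smr3a, a salivary gene 59005 bases beyond Csn3 that was set beside the locus after its value was seen, was listed at 0 in the same 3 libraries and at 3086 FPKM in 6-OHDA cells. The library with the highest Csn3 was thus the one in which these genes on either side of it were above 0, and their part in the Csn3 value was not tested. The noncoding gene 1700066N21Rik spans Csn3 but shares 0 exons with it in GENCODE.

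**Figure D2:**
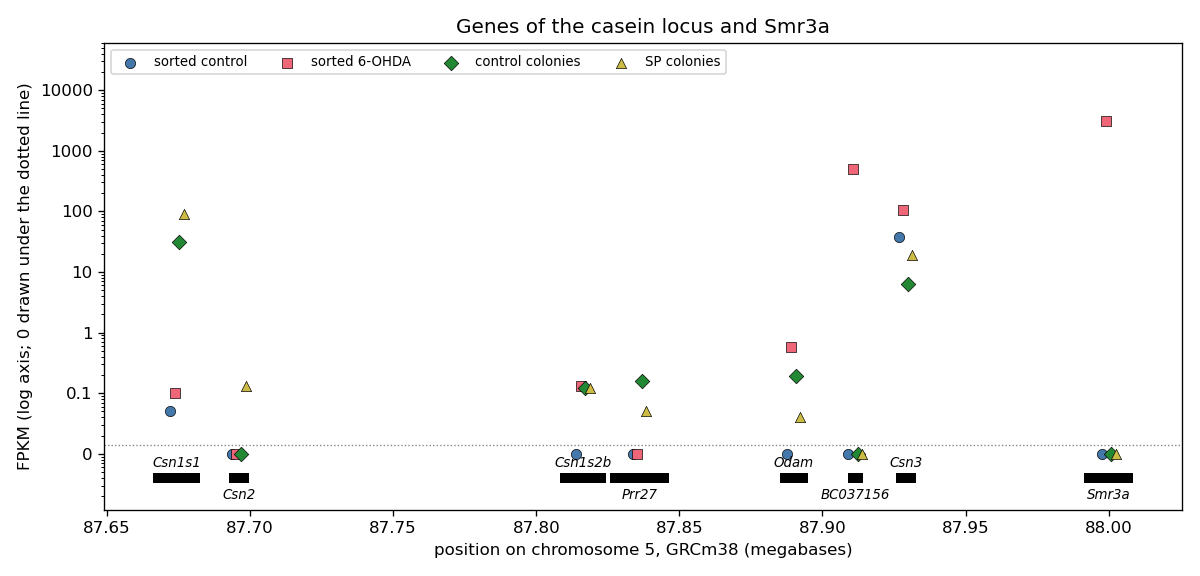
FPKM on a log axis against position on chromosome 5 for the genes of the casein locus with values and for Smr3a, with gene bodies as black bars and 1 point for each library. In 6-OHDA cells BC037156 stands at 495 and Smr3a at 3086 FPKM, on either side of Csn3 at 104 FPKM.

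Of the whey protein genes, Ltf (lactoferrin, an iron-binding antimicrobial protein of milk and other secretions) was at 21.4 FPKM in sorted control cells, 16.6 in 6-OHDA cells, 3.13 in control colonies and 19.8 in SP colonies. The control colony library was the low one, and Ltf was 6.33 times as high in SP colonies (log2 fold change 2.33), a rise exceeded by 29 genes. Lalba (α-lactalbumin, the regulatory subunit of lactose synthase) was at 0.37, 1.02, 1.08 and 5.13 FPKM, or about 3, 9, 10 and 48 fragments, and was highest in SP colonies (log2 fold change 1.56). Wap (whey acidic protein, a marker of late pregnancy and lactation) was listed at 0 in 3 libraries and at 0.21 FPKM in SP colonies, about 1 fragment.

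Glycam1 encodes a mucin-like glycoprotein that is secreted into milk and is also made by the high endothelial venules of lymph nodes, where it carries ligands of L-selectin. It was at 4729.5 FPKM in sorted control cells, 2171 in 6-OHDA cells, 0.16 in control colonies and 0 in SP colonies. In sorted control cells only 2 genes had a higher FPKM, and in 6-OHDA cells it was at rank 13, while the control colony value stands for about 1 fragment. The 6-OHDA value was lower by a log2 fold change of -1.12. In bulk RNA, fewer cells of a type and less RNA per cell cannot be told apart.

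The gene nearest to Glycam1 in pattern over the 4 libraries was Ccl21a, a chemokine of lymphatic and high endothelial cells, at 678, 298, 0 and 0 FPKM, with a root mean square difference of 1.36 in centred log2(FPKM + 1) among 12235 genes. Selp, the P-selectin of endothelium and platelets, came next at 1.90, then Cxcl10 at 2.34, Gem at 2.44 and Aqp1 at 2.45. The 6 endothelial markers summed to 229 and 217 FPKM in the sorted libraries and to 1.68 and 1.80 in the colony libraries, with Pecam1 the most abundant in each, at 107, 93.0, 1.39 and 1.56 FPKM. Madcam1, the vascular addressin, was at 5.40, 3.56, 0 and 0 FPKM. The sort of these cells included removal of CD31-bearing cells, and CD31 is the product of Pecam1. A list of 9 high endothelial venule genes, chosen after the Glycam1 values were seen, summed to 1257, 839, 36.1 and 10.9 FPKM, and its sulfotransferase Chst4 was at 2.97, 1.48, 0 and 0 FPKM. The list holds Ccl21a and Selp, the genes nearest to Glycam1 in pattern over these same libraries, so its values are not independent of that search. With 6-OHDA, 0 of the 9 genes on it were higher and 5 were lower, beside 15.8% and 8.35% of all genes. Their median log2 fold change was -0.34, beside 0.06 for all genes, and Ccl21a carried most of the fall of the sum. Sele, Cd34 and Ackr1 did not pass the threshold. They were at 75.6, 30.2 and 96.7 FPKM in sorted control cells and at 88.5, 37.3 and 95.0 in 6-OHDA cells. Of the 6 endothelial markers, 2 were higher with 6-OHDA and 1 was lower, beside 15.8% and 8.35% of all genes (median -0.04). Tek and Emcn were higher, by log2 fold changes of 0.43 and 0.49, and Madcam1, which is on both lists, was lower (-0.49). Glycam1 was thus high in the sorted libraries, where endothelial transcripts were present, and near 0 in the colonies, where most of them were near 0; their part in the Glycam1 values was not tested.

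**Figure D3:**
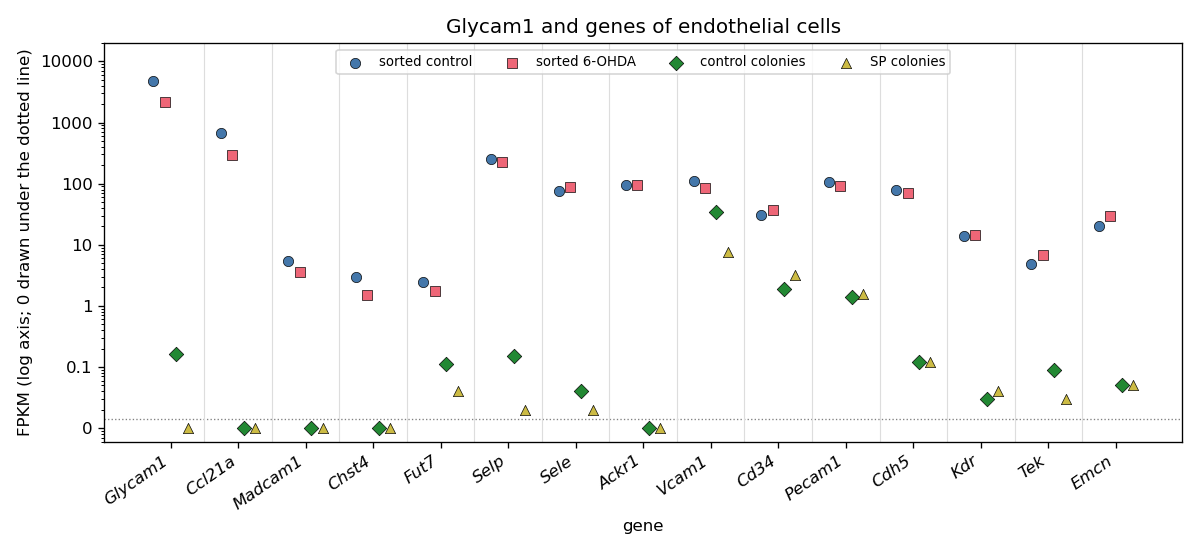
FPKM on a log axis of Glycam1, of the high endothelial venule genes chosen after its values were seen, and of the endothelial markers, with 1 point for each library. Glycam1 and Ccl21a are at 4729.5 and 678 FPKM in sorted control cells and at 0 in SP colonies, and Vcam1 keeps the highest colony value of these genes, at 34.0 FPKM in control colonies.

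Of the milk fat globule genes, Mfge8 (lactadherin, which binds phosphatidylserine on globules and dying cells) was at 355 FPKM in sorted control cells, 293 in 6-OHDA cells, 521 in control colonies and 282 in SP colonies. It was the 1 member above 100 FPKM in all 4 libraries, and its highest and lowest values were those of the colony libraries (log2 fold change -0.88 with SP). Its difference between the controls was 0.55 as deposited and 0.05 after median ratio scaling, so its place past the threshold there depends on the scaling. Btn1a1 (butyrophilin, a membrane protein needed for release of fat globules) was at 0.74, 0.64, 17.2 and 7.46 FPKM. Like Csn1s1 it was above 1 FPKM in the colony libraries alone, but it was lower with SP (log2 fold change -1.10) where Csn1s1 was higher.

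In the 6-OHDA comparison 4 members passed the filter on low values. Csn3 alone was higher, beside 15.8% of all 11749 genes, and Glycam1 and Ltf (-0.35) were lower, beside 8.35% of all genes. Mfge8 was at -0.28 as deposited and at -0.34, past the threshold, after median ratio scaling, while Ltf was at -0.29 with a pseudocount of 5. The median of the 4 was -0.31 and that of all genes was 0.06.

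In the SP comparison 6 members passed the filter. Csn1s1, Csn3, Lalba and Ltf were higher, beside 11.7% of all 11849 genes, and Btn1a1 and Mfge8 were lower, beside 19.8%. These 6 kept their directions under each scaling tried. Csn2 and Wap did not pass the filter, and the difference between the casein and whey genes and the milk fat globule genes was not tested. The median of the 6 was 1.47 and that of all genes was -0.07, while the summed FPKM of the members differed by a log2 ratio of -0.45, because Mfge8 dominates the sum.

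In the culture comparison 6 members passed the filter. Csn1s1 (4.92), Btn1a1 (3.38) and Mfge8 were higher in control colonies, beside 55.7% of all 12244 genes, and Csn3, Ltf (-2.44) and Glycam1 (-11.99) were lower, beside 26.6%. Csn1s1, Btn1a1 and Glycam1 passed the filter through the library in which they are high, so they had to differ. The median of all genes was 0.45 as deposited and 0.00 after median ratio scaling, and the genes higher made up 67.7% and 50.3% of those past the threshold. For the 6-OHDA comparison these shares were 65.4% and 50.4%, and for SP 37.1% and 50.0%.

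The other genes of milk secretion were read from lists, each count beside the share of all genes. A gene near 0 in one library passes the filter through the other and then has to differ, so these counts are descriptions. Of 25 other milk proteins with values, 12 of 21 past the filter were higher and 5 were lower in control colonies than in sorted control cells, beside 55.7% and 26.6% of all genes, so these counts were near the background. Their median log2 fold change was 1.3, beside 0.45 for all genes. Spp1 (osteopontin) was at 2.48, 5.63, 2495 and 1603 FPKM, and Wfdc18, named after its values were seen, was at 32.3, 42.8, 567 and 444 FPKM. Among the 5 lower, Apoe, the most abundant gene of the list in both sorted libraries, was at 2909, 1863, 718 and 345 FPKM. Cd36, another of the 5, was at 24.3, 41.6, 2.42 and 0.07 FPKM. With SP, 5 of 20 were higher and 10 were lower, beside 11.7% and 19.8% of all genes, with a median of -0.29 beside -0.07. With 6-OHDA, 10 of 21 were higher and 5 were lower, beside 15.8% and 8.35%, with a median of 0.16 beside 0.06. Among the 10, Lpo, Saa3 and Pigr were under 1 FPKM in sorted control cells and passed the filter through the 6-OHDA library, and Lpo is counted among the salivary gland genes as well, which were high in that library.

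Among 30 regulators of lactation, Elf5, a transcription factor of alveolar cells, was at 0.63, 1.02, 22.5 and 18.1 FPKM and Ehf, of the same ETS family, at 2.59, 6.26, 47.5 and 51.8 FPKM. Both were higher in the colony libraries than in the sorted libraries, as Csn1s1 was, but within the colonies Elf5 was lower in the SP library (log2 fold change -0.30, past the threshold before rounding) and Ehf differed by 0.12, where Csn1s1 was higher. Cish, a target of STAT5, was at 34.0, 24.5, 4.04 and 5.12 FPKM, and Stat5a at 14.1, 15.0, 7.69 and 8.09 FPKM. Both were lower in the colony libraries than in the sorted libraries, but within the colonies neither was lower in the SP library, where Csn1s1 was higher. Stat5b, the close relative of Stat5a, was at 6.86, 7.26, 7.53 and 7.93 FPKM and did not pass the threshold in any of the 3 comparisons. Cish, Stat5a and Stat5b were named after their values were seen. Of the 28 regulators past the filter in each comparison, 9 were higher and 12 lower in culture, beside 55.7% and 26.6% of all genes (median -0.23). With SP 1 was higher and 10 were lower, beside 11.7% and 19.8% (median -0.15), and with 6-OHDA 5 were higher and 7 lower, beside 15.8% and 8.35% (median -0.01).

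The 27 genes of milk fat and lipid synthesis had 13 of 25 higher and 6 lower in culture (median 0.38), 9 of 24 higher and 5 lower with SP (median 0.02), and 6 of 23 higher and 2 lower with 6-OHDA (median 0.09). The 30 genes of lactose synthesis and secretion had 14 of 28 higher and 11 lower in culture (median 0.34), 5 of 26 higher and 3 lower with SP (median 0.01), and 5 of 27 higher and 5 lower with 6-OHDA (median 0.14). The shares over all genes were 55.7% higher and 26.6% lower in culture, 11.7% and 19.8% with SP, and 15.8% and 8.35% with 6-OHDA, with medians of 0.45, -0.07 and 0.06. Scd2, a fatty acid desaturase, was at 9.07, 13.7, 278 and 441 FPKM. In the other direction, Cd36, which is on this list too, had log2 fold changes of -2.89 in culture and -1.68 with SP. Lpl was at 3.59, 5.59, 4.98 and 0.54 FPKM, lower with SP (-1.96). Xdh, which acts with Btn1a1 at the globule membrane, was at 26.1, 22.7, 15.8 and 32.5 FPKM, and B4galt1, the catalytic partner of Lalba, at 24.3, 29.6, 35.8 and 31.2 FPKM; both were named after their values were seen. Neither had the pattern of its partner among the members over the 4 libraries.

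Markers of other cells were set beside the members. In control colonies against sorted control cells, 7 of the 8 luminal markers were higher and 0 lower, among them Cldn7 at 82.9 against 10.4 FPKM. Of the 6 luminal progenitor markers 4 were higher and 1 lower, of the 7 hormone-sensing luminal markers 3 were higher and 1 lower, and of the 9 basal markers 1 was higher and 6 were lower, beside 55.7% and 26.6% of all genes. With SP, 0 luminal markers were higher and 3 lower, 0 luminal progenitor markers were higher and 4 lower, 2 hormone-sensing markers were higher and 4 lower, and 7 basal markers were higher and 1 lower, beside 11.7% and 19.8%. The 2 hormone-sensing markers higher with SP were Ly6a, at 266 against 50.4 FPKM, and Areg, at 46.2 against 16.9 FPKM, so the luminal lists did not all go one way. With 6-OHDA, 0 luminal markers were higher and 4 lower, 0 of the 5 luminal progenitor markers past the filter were higher and 2 lower, 2 hormone-sensing markers were higher and 1 lower, and 1 basal marker was higher and 2 lower, beside 15.8% and 8.35%. The part of cell composition in the values of the milk protein genes was not tested. Leukocyte markers summed to 13.2, 10.6, 6.29 and 7.17 FPKM, led by Lcp1, with Ptprc at 0 in both colony libraries, and macrophage markers to 13.2, 12, 2.77 and 3.50 FPKM, led by Cd68. Neutrophil markers summed to 0.95, 0.54, 31.4 and 131 FPKM, nearly all of it S100a8 in the colonies, where Mpo was at 0 and 0.02 FPKM; Ptprc and Mpo were named after their values were seen. Adipocyte markers summed to 211, 375, 38 and 1.13 FPKM, nearly all of it Fabp4 at 210, 374, 34.4 and 1.05 FPKM, while Adipoq, Plin1 and Cidec were under 2 FPKM in all 4 libraries and highest in control colonies. Fibroblast markers summed to 175, 367, 39.1 and 12.7 FPKM, with Col3a1 at 18.3, 91.7, 2.33 and 0.46 FPKM. Against that sum, Pdgfra was at 2.62, 3.40, 9.95 and 5.32 FPKM, and Col1a2 was at 21.4 and 20.6 FPKM in the control libraries.

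The gene nearest to Csn1s1 in pattern, a search added after its values were seen, was S100a8, a calgranulin, at 0, 0.47, 30.9 and 125 FPKM, with a root mean square difference of 0.240. For Mfge8 it was Ndrg4, at 10.8, 8.04, 16.9 and 8.37 FPKM (0.0588), followed by Glb1l, Tox, Ntng1 and Gsdme. For Csn3 it was Ly6c1, at 27.1, 50.3, 1.81 and 13.9 FPKM (0.4), followed by Serpinb11, Nrg1, Ereg and Synpo2. Each likeness is over 4 libraries.

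Promoter sequences from the RefSeq table of GRCm38 were compared for 8 members, Csn1s2a among them and Csn3 and Btn1a1 left out. The 250 bases before each start used there were read. TTCNNNGAA, the core motif bound by STAT5, reads the same on both strands and was found before Csn1s1, Csn2 and Glycam1, and in 7.02% of all 32851 promoters of that length. These 3 are shown since they share the motif while their FPKM differ widely, with the motif in capitals, for Csn1s1 at chr5:87665958-87666207 on the plus strand, Csn2 at chr5:87699426-87699675 on the minus strand and Glycam1 at chr15:103565082-103565331 on the minus strand.
Csn1s1: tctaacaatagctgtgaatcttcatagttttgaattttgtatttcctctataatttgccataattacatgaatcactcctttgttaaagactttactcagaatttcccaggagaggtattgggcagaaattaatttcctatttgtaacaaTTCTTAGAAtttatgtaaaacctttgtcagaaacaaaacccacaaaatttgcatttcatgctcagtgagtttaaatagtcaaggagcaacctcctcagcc
Csn2: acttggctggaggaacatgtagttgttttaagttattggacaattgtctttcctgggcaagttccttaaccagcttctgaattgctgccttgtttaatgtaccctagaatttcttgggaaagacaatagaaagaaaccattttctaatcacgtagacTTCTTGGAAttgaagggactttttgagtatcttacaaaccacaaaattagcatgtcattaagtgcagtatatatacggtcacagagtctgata
Glycam1: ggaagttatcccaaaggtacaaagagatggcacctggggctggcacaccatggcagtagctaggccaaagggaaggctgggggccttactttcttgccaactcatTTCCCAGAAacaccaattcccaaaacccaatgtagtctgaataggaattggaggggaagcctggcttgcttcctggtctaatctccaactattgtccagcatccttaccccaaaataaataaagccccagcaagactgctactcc
The motif began 100 bases before the start of Csn1s1, 93 before that of Csn2 and 145 before that of Glycam1. These distances are from the starts used by the promoter table, and for Csn2 that start lies a few bases inside the gene coordinates given above. The start used for Wap is likewise a few bases inside its gene. For Lalba, at chr15:98480400-98482934, the bases read were chr15:98482684-98482933, which lie inside the gene. The bases before the Lalba gene were therefore not searched for the motif. A match describes the letters and not a bound site.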

How the data were processed

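RNA was sequenced from sorted basal cells and basal colonies, 1 library per condition. The authors deposited FPKM values with 2 decimals; the submitters' processing notes name Bowtie2, RSEM 1.3.1, DESeq2 1.4.5 and mm10. FPKM values are not counts, so no count test was run. Of 17630 gene numbers, 17512 matched the RefSeq table of GRCm38.p6. Members and gene lists were chosen with earlier results of these data known. The named genes are the members, up to 3 genes with the largest change per list and comparison, the most abundant gene of each list, the 5 nearest in pattern to the 3 most abundant members among genes with a summed FPKM of at least 4, and the genes of the casein locus; not every gene covered is given. Wfdc18, Cish, Stat5a, Stat5b, Xdh, B4galt1, Ptprc, Mpo, Adipoq, Plin1, Cidec, Pdgfra, Sele and the genes nearest to Csn1s1 fall outside this rule and were chosen after their values were seen.

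Depth was estimated from 2270 genes with a single GENCODE vM21 transcript, of which 240 to 252 per library entered the fit at 250 bases. The fits scored between 0.31 and 0.46, where 1 is perfect, and values simulated at a known depth scored far higher, so fragment numbers are rough and carry no interval. The search ran from 8 to 30 fragments per FPKM and kilobase. It first ran to 45, and 30 was set after seeing that the 6-OHDA library gave 35.1 at 300 bases. The fold and depth steps were tested on simulated data. Alternatives were pseudocounts of 0.1 and 5, no filter, a mean FPKM of at least 5, a threshold of 1, the same sum, median ratio scaling, quantile normalization, the same sum without salivary genes, fragments of 150, 200 and 300 bases, and, chosen after seeing the data, the same sum without the members and the wider search. Python 3.11.15, numpy 2.4.6, pandas 2.3.3 and matplotlib 3.10.9 were used.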

Additional observations from a re-analysis of the deposited data

How the results depend on the processing

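Of 189 log2 fold changes of single members under other pseudocounts and scalings, 163 moved by at most 0.3, 26 moved by more and 0 of those past the threshold changed sign. For 6-OHDA, 1 member was lower in place of 2 with a pseudocount of 5 and at a threshold of 1; without the filter 2 were higher in place of 1, and the median over the members was 0.00. For SP, the median was 0.91 with a pseudocount of 5 and 0.28 without the filter, and 1 member was lower at a threshold of 1. For culture, the median of -0.93 became -0.58 with a pseudocount of 5, 0.00 without the filter and -1.41 after median ratio scaling, where the log2 ratio of the sums went from -3.15 to -3.66. Counts also moved by 1 elsewhere. For 6-OHDA 3 members were lower, Mfge8 included, after rescaling to the same sum with or without the members and after median ratio scaling. For SP 3 were higher at a mean FPKM of at least 5, which Lalba does not reach. For culture 2 were higher after median ratio scaling and at a threshold of 1, and 4 without the filter. The filter moves medians because members near 0 in both libraries enter; for the other settings the cause was not tested.

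The depth estimate of the 6-OHDA library depended on the range searched. At 300 bases it was 17.7 when searched to 30 and 35.1 when searched to 45, with a score of 0.39 for both, so the fit does not choose between them. The limit of 30 was chosen after seeing this. The other fits were the same in both ranges and lay between 14.9 and 18.8. If the higher value held, the fragment numbers given for 6-OHDA cells would be too low; FPKM and fold changes do not use them.

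No paired analysis was possible because each group has 1 library, and leaving out a replicate could not be run for the same reason. Whether values of a few fragments differ between libraries, as for Csn2 and Wap, was not tested, and no detection limit was estimated.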
